A study of Mus musculus with 8 samples.

Results

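Expression of 7 mature B cell surface genes (Cd79a, Cd79b, Ms4a1, Cd22, Cr2, Fcer2a and Tnfrsf13c) was measured in mouse knee cartilage before and after surgical destabilisation of the medial meniscus (DMM). The 7 genes were chosen by name, as components of the B cell receptor complex and surface proteins of mature B cells. The choice was made with earlier results of these data known. All 7 were found among the 50462 gene identifiers in the RNA-seq count table. The table holds 8 libraries, each from the medial cartilage caps of 1 male, wild-type C57BL/6J mouse. The 4 naive mice had no surgery and were sampled on day 0 at 11 weeks of age. The 4 DMM mice had the ligament that anchors the medial meniscus of the left knee cut at 11 weeks of age, received buprenorphine and isoflurane for the operation, and were sampled on day 42 at 17 weeks of age. No sham-operated mice were analysed here, so the effects of surgery, drugs and growing 6 weeks older cannot be told apart.

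B cells are made in the bone marrow, where immunoglobulin genes are rearranged, and then move to the blood, spleen and lymph nodes to mature. A B cell recognises antigen with surface immunoglobulin, which cannot signal without the CD79A and CD79B chains. CD20, CD22, CD21, CD23 and the BAFF receptor sit beside this complex and set how strongly the cell answers and how long it survives. Articular cartilage itself holds chondrocytes and, in health, no blood vessels, whereas the bone under it borders on marrow.

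The libraries were labelled as chondrocytes. Chondrocyte markers were abundant, with 15827 to 108391 estimated counts of Col2a1 and 5363 to 18695 of Acan per library, although Matn1 did not exceed 9. Genes of blood cells were also present. The 7 B cell genes together made up 96.8 to 148 CPM (estimated counts scaled to an equal library total) in naive and 119 to 319 CPM in DMM libraries. The 9 neutrophil lineage markers reached 8310 to 11600 CPM in naive and 3890 to 8200 CPM in DMM libraries. The 8 erythroid markers reached 10700 to 18000 and 5930 to 12600 CPM, and the 8 T cell markers 61.2 to 96.5 and 43.5 to 76.4 CPM. No marker of these lists was at 0 in all 8 libraries. Library totals lay between 12479443 and 16548002 estimated counts. The members themselves had between 45 (Cr2) and 1201 (Cd79a) estimated counts in a library. In a bulk library, fewer B cells and less RNA per B cell cannot be told apart.

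Promoter sequences are shown for the 4 members with 1 listed promoter each. They are from RefSeq (GRCm38.p6), run 5′ to 3′ on the strand of the gene, and cover 250 bases before and 50 after the transcription start. Capitals mark matches to 4 short motifs read on both strands. The motifs were the octamer ATGCAAAT bound by OCT factors, CCCNNGGG bound by EBF1, GAGGAA bound by PU.1 and other ETS factors, and CAGGTG bound by E proteins. EBF1, PU.1 and the E protein E2A are transcription factors of B cell development.
Cd79a, chr7:24897247-24897546, plus strand: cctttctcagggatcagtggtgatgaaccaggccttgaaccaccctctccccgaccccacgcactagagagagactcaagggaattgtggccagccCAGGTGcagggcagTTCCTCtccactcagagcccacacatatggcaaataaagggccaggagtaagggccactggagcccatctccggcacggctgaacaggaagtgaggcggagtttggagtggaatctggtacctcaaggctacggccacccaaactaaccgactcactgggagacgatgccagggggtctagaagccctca
Cd22, chr7:30878979-30879278, minus strand: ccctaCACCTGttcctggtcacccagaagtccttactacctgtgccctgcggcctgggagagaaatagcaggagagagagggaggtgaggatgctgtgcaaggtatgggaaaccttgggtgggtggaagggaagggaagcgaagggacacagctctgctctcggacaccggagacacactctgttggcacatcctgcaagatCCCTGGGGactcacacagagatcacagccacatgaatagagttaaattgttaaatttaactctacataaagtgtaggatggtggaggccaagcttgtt
Cr2, chr1:195176670-195176969, minus strand: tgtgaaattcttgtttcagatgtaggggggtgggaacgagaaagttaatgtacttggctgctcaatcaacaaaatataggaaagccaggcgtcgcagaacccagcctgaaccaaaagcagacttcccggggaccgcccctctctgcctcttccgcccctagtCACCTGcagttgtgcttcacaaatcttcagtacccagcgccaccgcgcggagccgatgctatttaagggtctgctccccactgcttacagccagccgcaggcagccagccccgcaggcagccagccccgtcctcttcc
Tnfrsf13c, chr15:82224331-82224630, minus strand: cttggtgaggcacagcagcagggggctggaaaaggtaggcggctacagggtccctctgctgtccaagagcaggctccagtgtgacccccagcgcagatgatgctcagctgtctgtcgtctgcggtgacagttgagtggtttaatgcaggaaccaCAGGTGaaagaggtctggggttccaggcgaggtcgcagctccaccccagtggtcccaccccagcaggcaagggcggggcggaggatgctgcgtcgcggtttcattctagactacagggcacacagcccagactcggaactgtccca

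All 4 promoters held the E protein motif once, at -154 in Cd79a, -245 in Cd22, -88 in Cr2 and -96 in Tnfrsf13c relative to the start. Of 32851 promoters in the same table, 20.2% held it. The Cd79a promoter also held the ETS motif at -140, which occurred in 28.3% of promoters, and the Cd22 promoter the EBF motif at -48, which occurred in 13.7%. None of the 4 held the octamer, found in 1.74% of promoters. A match of letters is a description of the sequence, and binding was not measured. Fcer2a had several listed promoters, 1 of which held the E protein motif. Cd79b and Ms4a1 were not in the promoter table.

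None of the 7 members was called as changed between naive and DMM cartilage. The call required DESeq2's Wald test to reach 0.05 after Benjamini-Hochberg adjustment over all genes, and a difference of 1.5-fold. Of 17760 genes tested, 2429 (13.7%) were called, 1377 (7.75%) higher and 1052 (5.92%) lower in DMM. All 7 members had a positive log2 fold change (DMM over naive), with a median of 0.42, against -0.01 over all genes averaging 10 or more normalised counts. At an unadjusted p under 0.05, 1 of the 7 passed (Cr2), and the share of all tested genes at that level was not counted. Both edgeR and limma-voom also called 0 of the 7. The groups did not overlap for 1 of 7 members (Cr2), against 3936 of 17760 tested genes (22.2%). Neutrophil and erythroid genes moved between the same groups, with 9 of 9 neutrophil and 7 of 8 tested erythroid markers called lower in DMM. Of 10 tested chondrocyte markers, 5 were called higher and 0 lower, with a median of 0.83, and the list summed to 5260 to 9730 CPM in naive and 9260 to 14000 CPM in DMM libraries. The part of these lists in the members' values was not tested.

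**Figure D1:**
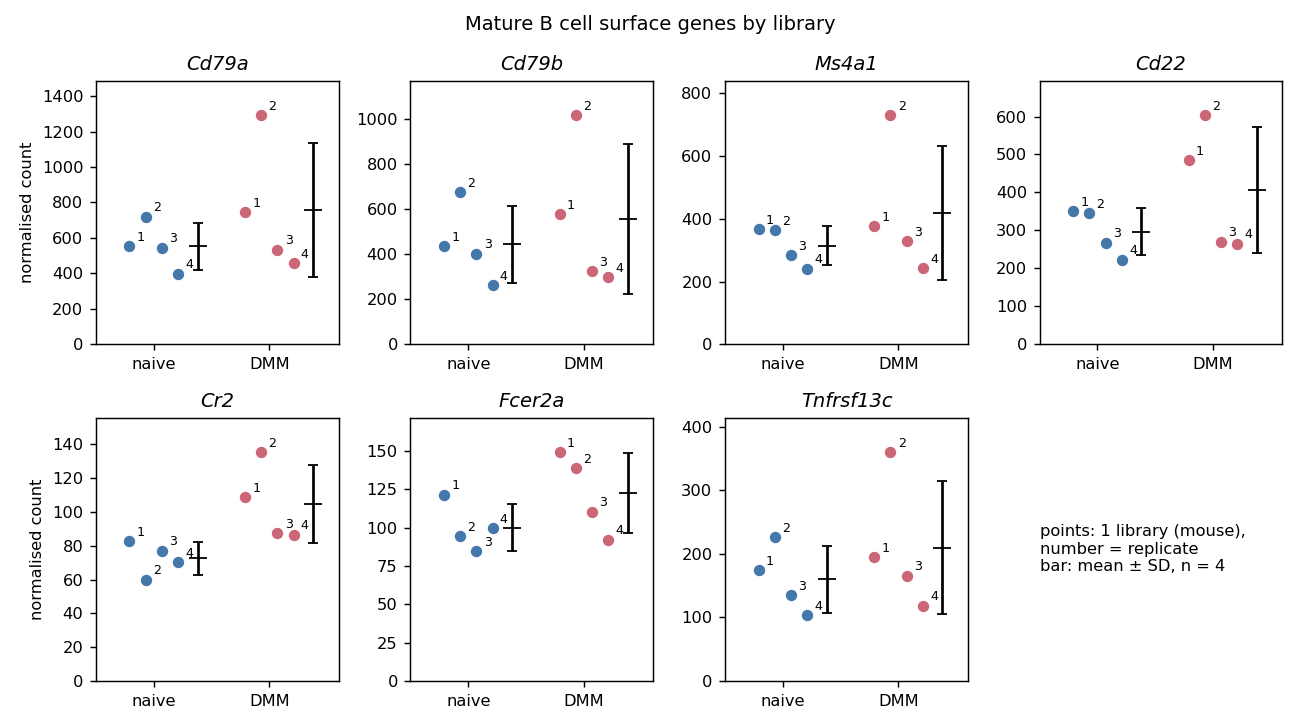
Normalised counts of each member in the 4 naive (blue) and 4 DMM (red) libraries, with the replicate number beside each point and the mean ± SD (n = 4) in black. DMM 2 is the highest point in 6 of the 7 panels, and only Cr2 has groups that do not overlap.

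Cd79a (ENSMUSG00000003379, chr7:24897381-24902197, plus strand) encodes the Ig-alpha chain, and is made from the early stages of the lineage onwards. Normalised counts were 552.3, 719.7, 544.8 and 396.8 in naive libraries 1 to 4, and 745.5, 1291.1, 532.6 and 457.6 in DMM libraries 1 to 4. DMM 1 and DMM 2 lay above every naive library, and DMM 3 and DMM 4 lay within the naive range. Naive libraries averaged 553.4 ± 132.0 and DMM libraries 756.7 ± 376.5 (SD, n = 4), a 1.37-fold difference with a 95% interval of 0.93 to 2.02 (DESeq2 adjusted p = 0.277). Of its 31-base words, 12.2% are shared with the pseudogene Gm32220, which had 0 estimated counts in every library.

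Cd79b (ENSMUSG00000040592, chr11:106311341-106314762, minus strand) encodes the partner chain Ig-beta. It had 436.2, 674.5, 401.3 and 261.9 normalised counts in the naive and 578.0, 1015.9, 323.5 and 297.8 in the DMM libraries. Again DMM 2 stood highest and naive 4 lowest, and the DMM values reached both above and close to the bottom of the naive range. The log2 fold change was 0.32 (SE 0.49), with a 95% interval of -0.64 to 1.28 (DESeq2 adjusted p = 0.714). This was the widest interval of the 7 members. Without DMM 2 the log2 fold change was -0.15 (DESeq2 adjusted p = 0.804).

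Ms4a1 (ENSMUSG00000024673, chr19:11249675-11266241, minus strand) encodes CD20, the target of B cell depleting antibodies. Its normalised counts were 367.6, 363.2, 284.7 and 240.4 in naive and 376.5, 729.9, 329.3 and 242.8 in DMM libraries. DMM 2 held about the same excess as for Cd79a, whereas DMM 4 was next to the lowest naive value. The log2 fold change was 0.42 (SE 0.29; DESeq2 adjusted p = 0.329) and fell to 0.01 without DMM 2. The antisense gene 4930526L06Rik overlaps Ms4a1 and had at most 10 estimated counts.

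Cd22 and Cr2 tune the signal of the receptor in opposite directions. Cd22 (ENSMUSG00000030577, chr7:30865402-30880342, minus strand) encodes an inhibitory lectin that binds sialic acid. It had 350.0, 345.9, 267.6 and 222.2 normalised counts in naive and 484.3, 603.1, 270.0 and 265.3 in DMM libraries, so that DMM 1 and DMM 2 lay above, and DMM 3 and DMM 4 within, the naive range. Its log2 fold change was 0.45 (SE 0.27; DESeq2 adjusted p = 0.236), and 0.20 without DMM 2. The antisense gene Gm29439, which overlaps it, had at most 9 estimated counts.

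Cr2 (ENSMUSG00000026616, chr1:195136811-195176716, minus strand) encodes complement receptor CD21, which lowers the threshold for activation. Normalised counts were 82.7, 59.9, 77.1 and 70.3 in naive and 108.6, 135.4, 87.3 and 86.6 in DMM libraries. All 4 DMM libraries were above all 4 naive libraries, the lowest DMM library by only a few counts. The log2 fold change was 0.52 (SE 0.22), with a 95% interval of 0.08 to 0.95, and it missed the threshold (DESeq2 adjusted p = 0.0771). With libraries scaled by total count alone it was called, at 0.66 (DESeq2 adjusted p = 0.0258). That scaling moved the median of all genes from -0.01 to 0.14. Without DMM 2 the value was 0.37 (DESeq2 adjusted p = 0.276).

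Follicular dendritic cells, the stromal cells of B cell follicles, are also known to carry CD21 and CD23. Of 3 listed markers of these cells, Cxcl13 had at most 7 and Madcam1 at most 2 estimated counts in any library. The remaining marker Mfge8, which many other cells use, had 1289 to 5202 estimated counts and was called higher in DMM, at 0.70 on the log2 scale by DESeq2 (adjusted p = 0.00475). It was short of 1.5-fold without DMM 3 or DMM 4, at 0.56 and 0.58, and called in the other 6 fits that left out 1 library. The list summed to 102 to 166 CPM in naive and 181 to 316 CPM in DMM libraries, and its part in the values of Cr2 and Fcer2a was not tested.

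Fcer2a (ENSMUSG00000005540, chr8:3681737-3694175, minus strand) encodes CD23, the low affinity IgE receptor. It had 121.4, 94.5, 84.6 and 99.8 normalised counts in naive and 149.3, 138.7, 110.3 and 92.1 in DMM libraries. It was the only member whose highest library was DMM 1. The log2 fold change was 0.29 (SE 0.21), with a 95% interval of -0.13 to 0.71 (DESeq2 adjusted p = 0.373). Tnfrsf13c (ENSMUSG00000068105, chr15:82221743-82224369, minus strand) encodes the BAFF receptor, through which mature B cells receive their survival signal. Its normalised counts were 174.1, 226.2, 134.9 and 103.2 in naive and 194.9, 360.1, 165.5 and 118.2 in DMM libraries. All DMM libraries except DMM 2 lay within the naive range. The log2 fold change was 0.39 (SE 0.33; DESeq2 adjusted p = 0.434), and 0.00 without DMM 2.

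The 7 genes differed between mice more than most genes did. The coefficient of variation (CV, SD over mean) among the 4 DMM libraries was 60.1% for Cd79b, 51.0% for Ms4a1, 50.1% for Tnfrsf13c, 49.8% for Cd79a and 41.1% for Cd22. It was 22% for Cr2 and 21.3% for Fcer2a. Over the 13220 tested genes averaging 50 or more normalised counts, the median CV in DMM was 12.5% and the 90th percentile 28.1%, a level exceeded by 5 of the 7 members. Among naive libraries the median CV was 21% for the members and 12.5% for all genes. The CV in DMM exceeded that in naive for 7 of 7 members. Most of the excess rested on DMM 2. Without DMM 2 the members' median CV was 24.9%, against 12.3% over all genes, and 2 of the 7 exceeded the 90th percentile of 28.5%.

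Relative to the naive mean, the median of the members was 0.19, 0.22, -0.14 and -0.42 on the log2 scale in naive libraries 1 to 4. It was 0.43, 1.17, 0.05 and -0.27 in DMM libraries 1 to 4. DMM 2 lay above the naive maximum for 7 of 7 members and DMM 1 for 5 of 7. DMM 3 and DMM 4 each lay within the naive range for 6 of 7, the exception being Cr2. Naive 4 was the lowest of the 8 libraries for 5 of 7 members. DMM 3 had 12600 CPM of erythroid genes, against 5930 to 6470 CPM in the other DMM libraries, and DMM 1 had the fewest neutrophil lineage counts (3890 CPM). The part of these differences in the members' values was not tested. In naive 2, 16770 genes had at least 10 counts, against 18276 to 18467 in the other naive libraries.

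**Figure D2:**
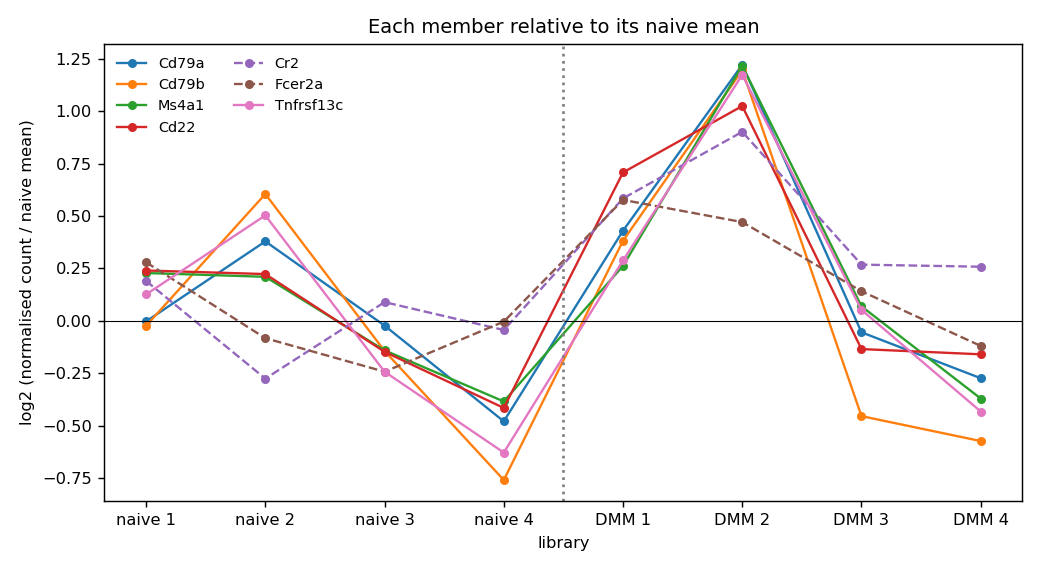
Log2 ratio of each member's normalised count to its naive mean, by library. Lines connect the values of 1 gene and have no order in time. The 7 lines share a peak at DMM 1 or DMM 2 (median 0.43 and 1.17) and lie near or below the naive mean in DMM 3 and DMM 4, except for Cr2.

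Per kilobase of the longest coding transcript, Cd79a and Cd79b were the most abundant members, with 379.8 ± 90.6 and 309.9 ± 119.8 normalised counts per kilobase in naive and 519.4 ± 258.4 and 387.0 ± 232.7 in DMM libraries (SD, n = 4). Ms4a1 followed with 102.1 ± 20.2 and 136.5 ± 69.6. Tnfrsf13c had 80.5 ± 26.7 and 105.7 ± 53.0, and Cd22 74.6 ± 15.7 and 102.1 ± 41.9. Fcer2a had 44.6 ± 6.9 and 54.7 ± 11.7, and Cr2 was lowest at 11.7 ± 1.6 and 16.8 ± 3.7. Each gene lay above the next in 8 of 8 libraries, except that Tnfrsf13c lay above Cd22 in 4 of 8, so these neighbours were not ordered. The 2 receptor chains thus kept the same order in every mouse, although their own levels ranged over 3.25-fold and 3.88-fold. Per-kilobase values depend on which transcript gives the length, and the deposited values are summed over the transcripts of a gene.

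To ask whether the members changed unequally, each was divided by Cd79a in the same library, with a pseudocount of 1. Of the 6 ratios, 0 differed between groups in a two-sided exact permutation test, with exact p values from 0.3143 to 0.8286 and an adjusted p of 0.83 for each. The smallest p this design allows is 0.0286, so a single ratio at that value could not reach 0.05 after adjustment over the 6. The differences (DMM minus naive, log2) were -0.14 for Cd79b, -0.05 for Ms4a1, 0.02 for Cd22, 0.15 for Cr2, -0.08 for Fcer2a and -0.03 for Tnfrsf13c. The ratios of Tnfrsf13c, Ms4a1 and Cd22 stayed within ranges of 0.35, 0.40 and 0.48 over all 8 libraries, and that of Cd79b within 0.62. Those of Cr2 and Fcer2a ranged over 1.18 and 1.23. Both were lowest in naive 2 and DMM 2, the libraries with the most Cd79a in their groups. Cd79a is the denominator, so a high Cd79a by itself lowers these ratios. The log2 ratio of Cr2 to Cd79a was -3.57 in naive 2 and -3.24 in DMM 2, against -2.81 to -2.39 in the other 6 libraries. The ratio of Fcer2a was -2.92 in naive 2, -2.67 in naive 3 and -3.21 in DMM 2, against -2.31 to -1.98 in the other 5.

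**Figure D3:**
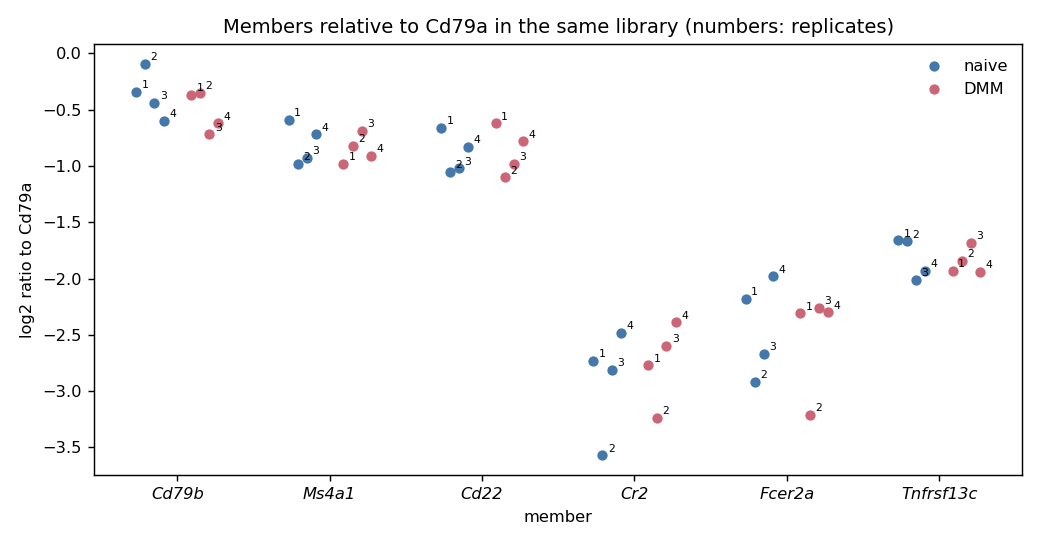
Log2 ratio of 6 members to Cd79a in the same library, with naive libraries in blue, DMM libraries in red and the replicate number beside each point. The groups overlap for all 6 members, and the points of Cr2 and Fcer2a spread over 1.18 and 1.23, with naive 2 and DMM 2 lowest.

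Across the 8 libraries, the 21 pairs of members had Pearson correlations of log2 normalised counts from 0.49 (Cd79b and Cr2) to 0.97 (Cd79a and Tnfrsf13c), with a median of 0.80. After the group means were removed they ranged from 0.52 to 0.99, highest for Cd79a with Cd79b. These are descriptions over 8 points that share libraries and size factors. Among 13178 other genes averaging 50 or more normalised counts, those most like the mean of the members were Mief2 (r = 0.983), Sbk1 (0.982), Snn (0.980), Zswim5 (0.974) and Mtss1 (0.971). By deviations from the group means they were Mief2 (0.984), Ralgps2 (0.984), Prr14 (0.983), Crybg1 (0.982) and Cd37 (0.981), a tetraspanin of B cells. Snn had 483.7, 424.4, 393.9 and 302.7 normalised counts in naive and 599.6, 837.4, 377.0 and 379.1 in DMM libraries. These lists depended on single libraries, since 1 of the 10 places remained without DMM 2, and 2 remained without naive 2.

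The other genes of the B lineage were then examined in 7 lists holding 78 tested genes, of which 3 were called higher and 2 lower (6.41%, against 13.7% of all tested genes). The call count was 2 without DMM 1, 3 without DMM 2 or naive 1, and 8 without DMM 4. Their median log2 fold change was 0.19. Pax5, the factor that fixes B cell identity, followed the members (r = 0.94) and was at a log2 difference of 0.27 (DESeq2 adjusted p = 0.572).

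Of 16 genes of receptor signalling, 0 were called higher and 1 lower, with a median of -0.08. The gene called was Dapp1, an adaptor downstream of PI3 kinase, at -0.60 (SE 0.16; DESeq2 adjusted p = 0.00232). Its size fell below 1.5-fold without naive 1, naive 2, DMM 1 or DMM 4, where values were -0.57, -0.51, -0.54 and -0.53, and with edgeR or either other scaling. Vav1, a guanine nucleotide exchange factor of blood cells, was at -0.44 (DESeq2 adjusted p = 0.0012) and the kinase Btk at -0.45 (DESeq2 adjusted p = 0.00523), both past the p threshold and short of 1.5-fold. The same held for Plcg2 at -0.34 and, higher in DMM, for Cd81 at 0.38 and Fyn at 0.34. The kinase Syk, the most abundant of the list, was at -0.09 (DESeq2 adjusted p = 0.808), and at 0.07 with total count scaling. Vav1, Btk and Syk are also used by myeloid cells.

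Of 8 inhibitory genes, 0 were called, with a median of -0.24. Lair1, Ptpn6 (the phosphatase SHP-1) and Pirb passed the adjusted p alone, at -0.42, -0.43 and -0.30. These genes are also expressed by myeloid cells. Fcgr2b, the inhibitory Fc receptor of B cells, was at -0.19 (DESeq2 adjusted p = 0.279). Of 10 tested genes of the BAFF and APRIL axis, 0 were called, with a median of -0.02. Tnfsf13b, which encodes BAFF, the ligand of the Tnfrsf13c product, had 155.7, 171.6, 142.3 and 128.1 normalised counts in naive and 82.1, 84.9, 110.3 and 145.3 in DMM libraries. The 2 DMM libraries with the most B cell gene counts had the fewest of Tnfsf13b, and over the 8 libraries its r with the members was -0.67. The neutrophil lineage markers ordered the DMM libraries as Tnfsf13b did, with 3890, 5240, 7720 and 8200 CPM in DMM 1 to 4. In naive libraries the orders differed. The part of the neutrophil list in the values of Tnfsf13b was not tested. The log2 fold change of Tnfsf13b was -0.50 (SE 0.22; DESeq2 adjusted p = 0.0838), and it was called at -0.69 without DMM 4 (DESeq2 adjusted p = 0.00854). Relb and Traf3, of the noncanonical NF-kappaB pathway below the receptor, were at 0.42 (DESeq2 adjusted p = 0.122) and -0.05 (DESeq2 adjusted p = 0.794, and 0.11 with total count scaling).

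Of 10 transcription factors, 0 were called, with a median of 0.25. Ebf1, which specifies the lineage and is also expressed by fat and stromal cells, passed the adjusted p alone at 0.43 (DESeq2 adjusted p = 0.0198), with all DMM libraries above all naive libraries. Foxo1 passed it at 0.39, and Spi1 and Irf8, both shared with myeloid cells, at -0.49 and -0.44. Of 18 other mature B cell genes, 1 was called higher and 1 lower, with a median of 0.24. S1pr1, which guides lymphocytes out of tissues and is abundant in endothelium, was at 0.65 (SE 0.18; DESeq2 adjusted p = 0.00328). It was short of 1.5-fold without naive 1, DMM 1 or DMM 2, at 0.58, 0.55 and 0.58. Zfp318, needed for surface IgD, passed the adjusted p alone at 0.53 (DESeq2 adjusted p = 0.00203), and was called with total count scaling and without DMM 4 (0.68 and 0.59).

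Of the 3 immunoglobulin constant genes expressed by naive B cells, 1 was called higher and 0 lower, with a median of 0.52. Igkc, the kappa light chain constant gene, had 2371.7, 1833.2, 2762.3 and 2598.8 normalised counts in naive and 5343.2, 7665.8, 4090.5 and 4305.9 in DMM libraries, so that the groups did not overlap. Its log2 fold change was 1.16 (SE 0.20; DESeq2 adjusted p = 7.58e-07), and it was called in 8 of 8 fits that left out 1 library. Ighm, the mu heavy chain gene, had 3505.3, 3991.1, 3321.0 and 2957.1 in naive and 6262.1, 6395.1, 2706.7 and 2365.5 in DMM libraries. DMM 1 and DMM 2 lay above every naive library and DMM 3 and DMM 4 below every naive library, and the log2 fold change of 0.36 (SE 0.37) was not called (DESeq2 adjusted p = 0.544). Ighd was at 0.52 (DESeq2 adjusted p = 0.191).

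Kappa light chain is also made by plasma cells, which lose most of the mature B cell surface genes when they differentiate. Of 5 tested plasma cell markers, 3 were called higher in DMM (Jchain, Sdc1 and Prdm1). Mzb1 and Derl3 were not called, at 0.46 (DESeq2 adjusted p = 0.241) and 0.54 (DESeq2 adjusted p = 0.474). The remaining marker, Tnfrsf17, had 2 to 14 estimated counts in a library and was not among those tested. The summed level of the 6 listed was 68.4 to 94.4 CPM in naive and 179 to 286 CPM in DMM libraries. Jchain and Sdc1 were the most abundant of them, averaging 702.9 and 321.8 normalised counts in naive libraries. Sdc1 had 726.5, 575.1, 666.0 and 604.7 normalised counts in DMM 1 to 4, highest in DMM 1, whereas Jchain was highest in DMM 2. Which cells held these transcripts was not measured. Jchain, which joins polymeric antibodies and was singled out after its values were seen, had 819.6, 548.1, 774.9 and 669.0 normalised counts in naive and 1767.2, 2922.9, 1543.5 and 2065.0 in DMM libraries. Its log2 fold change was 1.56 (SE 0.20; DESeq2 adjusted p = 5.6e-12). Jchain was thus higher in DMM 3 and DMM 4 than in any naive library, where the members, except Cr2, lay within the naive range. Whether the change of Igkc or Jchain differed from that of the members was not tested.

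**Figure D4:**
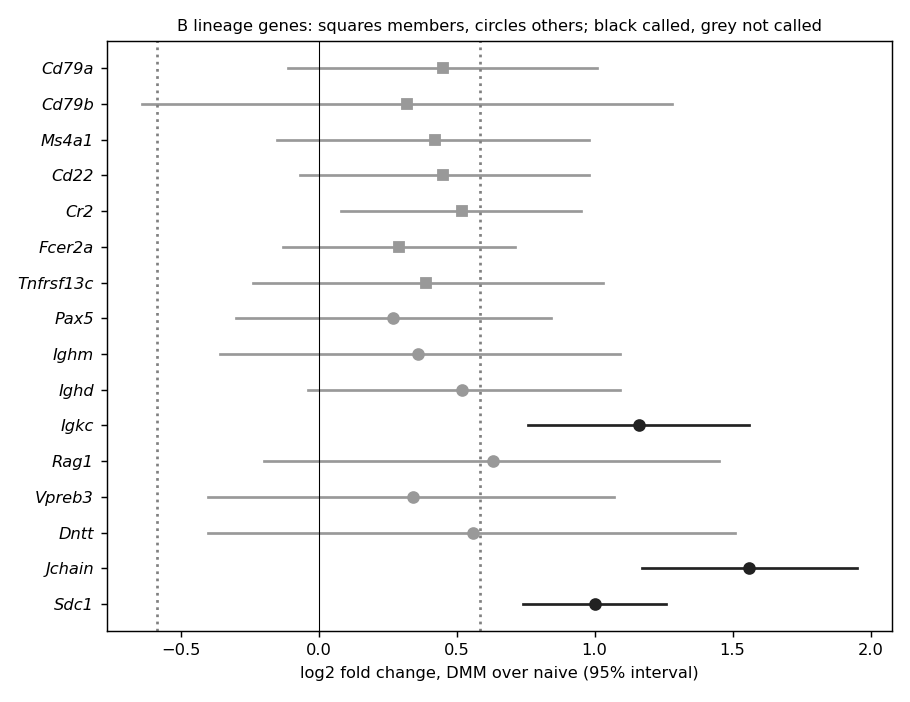
Log2 fold change (DMM over naive, DESeq2) with its 95% interval for the 7 members (squares) and 9 other B lineage genes (circles). Genes called are black and the others grey, and dotted lines mark 1.5-fold. The members sit between 0.29 and 0.52 with no call, and Igkc and Jchain lie at 1.16 and 1.56.

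Of 14 early B cell genes, 1 was called higher and 0 lower, with a median of 0.44. Lef1, a factor of Wnt signalling used by pro-B cells and by skeletal cells, was called at 0.99 (SE 0.19; DESeq2 adjusted p = 6.17e-06) and in 8 of 8 fits that left out 1 library. Sox4 passed the adjusted p alone at 0.44 and Flt3 at -0.42. The following genes were chosen after their values were seen. Rag1, which cuts the immunoglobulin genes in precursors, had 846.0, 1007.1, 754.5 and 500.0 normalised counts in naive and 1451.3, 1955.4, 617.4 and 777.1 in DMM libraries. It followed the mean of the members (r = 0.94), as did Vpreb3 (r = 0.92). Neither was called, at 0.63 (DESeq2 adjusted p = 0.309) and 0.34 (DESeq2 adjusted p = 0.587). Dntt, the terminal transferase of the earliest precursors, had 190.8, 372.5, 204.4 and 178.0 in naive and 624.5, 156.9, 372.1 and 234.7 in DMM libraries. Its lowest library was DMM 2, where most members were highest, and its r with the members was 0.08.

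**Figure D5:**
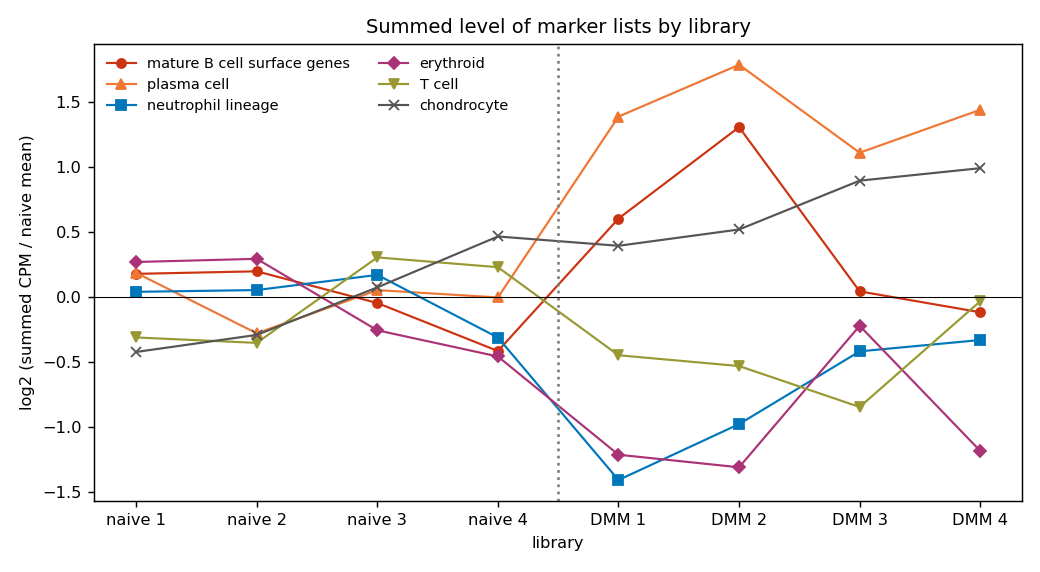
Log2 ratio of the summed CPM of each marker list to its naive mean, by library. Lines connect libraries and have no order in time. The 7 B cell genes (red, 119 to 319 CPM in DMM) peak in DMM 2, whereas the plasma cell list (orange) is above its naive range in all 4 DMM libraries and the neutrophil list (blue) below it.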

How the data were processed

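Total RNA of cartilage was sequenced from 4 naive and 4 DMM mice, 1 library per mouse. The authors trimmed the reads with Trimmomatic, quantified transcripts with kallisto and summed them to genes with tximport, and deposited estimated counts per gene, of which 39.0% are not whole numbers (tolerance 1e-06). The study's methods name GRCm38 and the labels name GRCh38, and the gene identifiers are mouse. The methods name a SMART-Seq kit and the labels an NEB low input kit. Whether the counting used strand is not given in the sources used here.

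Estimated counts were rounded and tested with DESeq2 version 1.42.0 (Wald test, median-of-ratios factors, independent filtering, no covariates), the study's test, over the whole table. The script was tested on simulated data. Symbols were found for 48855 of 50462 identifiers, which hold 86.6% of counts. Coordinates are from GENCODE vM21 (GRCm38), matched by identifier for all 141 listed genes. Libraries held 12479443 to 16548002 counts, so a gene with few counts, such as Cr2, carries more counting error. Ratios were tested by exact permutation over 70 assignments. CPM are relative to all counts of a library. The marker lists of the plasmacytoid dendritic cell and macrophage had 0 of 3 and 0 of 7 tested genes called, the T cell list 1 of 8 (lower), the chondrocyte list 5 of 10 (higher) and the follicular dendritic cell list 1 of 1 (higher).

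Alternatives were edgeR version 4.0.16 (quasi-likelihood), limma version 3.58.1 (voom), TMM factors, total count scaling, a filter of 10 counts in 4 libraries, no independent filtering, no fold threshold, a replicate block, another pseudocount (0.5), Cd79b as the reference, and each library left out. The median CV without each DMM library was added after the data were seen.

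The members and all gene lists were chosen with earlier results of these data known. Beside the members, the text names in each list the 3 genes with the smallest DESeq2 p and the most abundant gene, genes fixed by name (Pax5, Ighm, Ighd, Tnfsf13b and Fcgr2b among them), and the 5 genes most like the members by each measure. Not every gene so chosen is reported here.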

Additional observations from a re-analysis of the deposited data

Results flagged for a closer look

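In groups of 4 libraries, 1 library stood apart from its group by Dixon's test in 6 of 136 comparisons, where chance gives about 6.8 (1 in 20). The log2 ratio of Fcer2a to Cd79a was -3.21 in DMM 2, against -2.31 to -2.26 in the other DMM libraries. Vav1 had 1096 normalised counts in DMM 2, against 1165 to 1170 in the others. Irf8 had 1351 in DMM 2, against 1044 to 1066. Traf3 had 919.3 in naive 2, against 783.5 to 800.6 in the other naive libraries. The erythroid markers summed to 12600 CPM in DMM 3, against 5930 to 6470. In naive 2, 16770 genes had at least 10 counts, against 18280 to 18470 (rounded) in the other naive libraries.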

How the results depend on the processing

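None of the 7 members was called under any of the 17 settings, except that 1 (Cr2) was called with total count scaling. The companion lists had 5 genes called, 20 without the fold threshold (9 higher and 11 lower) and 2 to 8 with 1 library left out. The share of all tested genes without the fold threshold was not counted, so the 20 cannot be set against a background. The replicate block left 0 members and 5 companion genes called. Libraries with the same number did not deviate together (r of 0.05, 0.058, -0.119 and 0.117 over 18403 genes), so the numbers did not pair the mice. With total count scaling, Syk, Traf3, Prr14 and Crybg1, none of them called, changed sign to 0.075, 0.11, 0.087 and 0.092. With 1 library left out, the log2 fold change ranged from -0.15 to 0.59 for Cd79b, -0.031 to 0.46 for Pax5, -0.26 to 0.014 for Syk, -0.081 to 0.0047 for Traf3, -0.092 to 0.22 for Ralgps2 and -0.22 to 0.045 for Crybg1. The log2 ratio to Cd79a then ranged from -0.11 to 0.028 for Ms4a1, -0.061 to 0.10 for Cd22, -0.078 to 0.31 for Cr2, -0.24 to 0.15 for Fcer2a and -0.10 to 0.02 for Tnfrsf13c. Under every setting, 0 ratios differed. With 1 library left out the exact permutation test cannot reach 0.05, so those settings could not have shown a difference. Of the 10 places among the most alike genes, 1 to 6 remained. What caused these changes was not tested. Cd79a had CVs of 23.8% among the 4 naive and 49.8% among the 4 DMM libraries. Its interval still allowed a difference of 2.02-fold, so a change of that size was not excluded.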
